A study of Mus musculus with 12 samples.

Results

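The Th2 cytokine locus of the mouse was read from ATAC-seq peak lists of naive, Th1 and Th2 CD4+ T cells. It was taken as the stretch of chromosome 11 (GRCm38) from 20 kb before Kif3a to 20 kb after Il5, at 53545701 to 53745103. Its regions were taken by their position in this window. Along the chromosome it holds Kif3a (NCBI gene 16568, 53565701 to 53604248), Il4 (16189, 53612460 to 53618665), Il13 (16163, 53631323 to 53634702), Rad50 (19360, 53649519 to 53707319) and Il5 (16191, 53720794 to 53725103). In the 12 lists 167 of 577689 peaks fell in this window. Merged where they overlapped by at least 1 bp, they formed 29 of the 110642 open regions of the series. ATAC-seq marks accessible DNA by the insertion of adapters with the Tn5 transposase, and a region counts as open in a library when a peak was called in it.

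The cells were isolated from the spleen, either from wild-type C57BL/6J mice or from C57BL/6J-Ets1-SE-KO mice, whose name stands for the knockout of a super-enhancer of the transcription factor gene Ets1. Each genotype gave naive cells, which were not cultured, and cells cultured for 6 days on plates coated with anti-CD3 with soluble anti-CD28. Th1 cultures held IL-12 at 10 ng/mL and IL-2 at 1 ng/mL, and their protocol lists no antibody against IL-4. Th2 cultures held IL-4 at 50 ng/mL and an antibody against interferon gamma, so both polarized groups share the receptor stimulation and the time in culture. Each of the 6 groups had 2 libraries, which are technical replicates of 1 sample per genotype for naive cells and biological replicates by their titles for Th1 and Th2 cells. The 2 knockout libraries taken as Th2 have Th2 cells as their source name, but their titles call them second technical replicates of the Th1 knockout. They were grouped by source name, and values are given by genotype. Of 5 Th2 marker genes, these 2 libraries had a peak within 1 kb at 5 and 4, Th2 wild-type libraries at 4 and 4, and Th1 libraries at 3, 2, 3 and 3. Of 4 Th1 marker genes they had one at 2 and 1, Th2 wild-type libraries at 1 and 2, and Th1 libraries at 3, 2, 3 and 3. The Th2 markers include Il4, Il5 and Il13, so they are not independent of the values at the locus.

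IL-4, IL-5 and IL-13 are the defining cytokines of Th2 cells. IL-4 drives Th2 differentiation and the switch of B cells to IgE, IL-5 acts on eosinophils, and IL-13 acts on mucus production and airway muscle. Their genes lie together and are known to be opened jointly when naive cells become Th2 cells, under the transcription factors GATA3 and STAT6. Rad50, which lies between Il13 and Il5, encodes a subunit of a DNA repair complex. Its part nearest to Il13 is known to hold a locus control region that acts on the cytokine genes. Kif3a, at the other edge, encodes a motor subunit of kinesin-2 that is used in many cell types.

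The promoters of the cytokine genes, from 250 bases before to 50 bases after the annotated start, are shown because the lists differed in whether they cover them. They were taken from RefSeq (GRCm38.p6), where 4 of the 5 member genes had an entry. Capitals mark matches, on either strand, to AGATAA (the core of GATA sites), TTC and GAA with 4 bases between (STAT6), TTCNNNGAA (STAT), GGAAAA (NFAT), TGANTCA (AP-1), AGGAAG (ETS) or TGTGGT (RUNX), and neighbouring or overlapping matches run together.
Il4, first start, chr11:53618616-53618915, minus strand: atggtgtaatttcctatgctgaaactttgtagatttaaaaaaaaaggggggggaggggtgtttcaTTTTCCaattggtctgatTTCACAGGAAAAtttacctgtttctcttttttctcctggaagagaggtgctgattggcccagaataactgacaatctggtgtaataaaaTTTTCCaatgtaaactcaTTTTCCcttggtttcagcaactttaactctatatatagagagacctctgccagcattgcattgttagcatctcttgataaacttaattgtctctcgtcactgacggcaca
Il4, second start, chr11:53617289-53617588, minus strand: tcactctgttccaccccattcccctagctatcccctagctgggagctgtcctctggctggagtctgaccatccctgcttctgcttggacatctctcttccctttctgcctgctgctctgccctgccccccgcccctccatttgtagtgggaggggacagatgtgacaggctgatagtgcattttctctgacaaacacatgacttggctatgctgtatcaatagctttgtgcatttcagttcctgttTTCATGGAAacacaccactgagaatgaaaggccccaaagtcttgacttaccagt
Il13, chr11:53634653-53634952, minus strand: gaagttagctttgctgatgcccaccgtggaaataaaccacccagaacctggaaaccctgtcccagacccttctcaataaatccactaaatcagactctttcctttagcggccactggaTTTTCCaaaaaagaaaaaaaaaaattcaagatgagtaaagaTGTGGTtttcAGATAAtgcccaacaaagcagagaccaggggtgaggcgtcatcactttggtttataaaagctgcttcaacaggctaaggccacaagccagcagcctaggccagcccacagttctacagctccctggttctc
Il5, chr11:53720544-53720843, plus strand: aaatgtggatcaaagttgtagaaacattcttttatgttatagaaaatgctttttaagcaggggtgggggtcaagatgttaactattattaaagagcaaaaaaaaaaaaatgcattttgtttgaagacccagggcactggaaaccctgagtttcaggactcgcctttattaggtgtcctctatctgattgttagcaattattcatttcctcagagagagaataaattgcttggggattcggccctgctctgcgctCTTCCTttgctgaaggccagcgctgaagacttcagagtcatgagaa

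The window at the first Il4 start held 4 NFAT matches and 1 STAT6 match that overlaps 1 of them. The second Il4 window held 1 STAT match. At Il13 there were 1 GATA, 1 RUNX and 1 NFAT match, and at Il5 1 ETS match. Of 32851 promoter windows of this length in the table, 23.4% held the NFAT letters, 6.95% the STAT6, 8.30% the STAT, 11.2% the GATA, 16.8% the RUNX, 35.4% the ETS and 7.81% the AP-1 letters. A match describes the letters only. The second Il4 window lay wholly inside a region that was open in 4 of 4 Th2, 3 of 4 Th1 and 0 of 4 naive libraries. No list covered the window at the first Il4 start or the Il5 window, and the Il13 window was overlapped by 1 weak peak of 1 Th2 library. The window of Kif3a had a GC content of 59.7%, against 38.0% at the first Il4 start, held no match to the 7 motifs, and was open in all 12 libraries.

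Across the series, lists held 34746 to 56357 peaks on the chromosomes used, and Th2 lists (51600 to 56357) were longer than Th1 lists (34746 to 46006). The number of reads behind a list is unknown. Peak names in the naive lists carry another run label than those in the polarized lists, so culture and that label cannot be told apart. By peaks within 1 kb of marker genes, the 4 T cell markers Cd4, Cd3e, Cd3g and Trac were open in every library. Of the Th1 markers, Ifng was open in 4 of 4 Th1 and 0 of 4 Th2 libraries, Tbx21 in 3 and 1, Cxcr3 in 0 and 1, and Il12rb2 in all 8. Of the Th2 markers outside the locus, Gata3 and the IL-33 receptor gene Il1rl1 were open in every library of all 3 cell types. In naive lists the CD8 genes Cd8a and Cd8b1 were open in all 4 libraries, and B cell markers were open at 2 of 4 genes in the wild type and 4 of 4 in the knockout, against 1 or 2 of 4 in the polarized lists. Red cell markers were open at 2 of 3 genes in the naive wild type, 3 of 3 in the naive knockout and 1 of 3 elsewhere. Myeloid markers were open at 2 of 3 genes in the naive knockout and 1 of 3 elsewhere, as Itgam had a peak in all 12 libraries, Csf1r in both naive knockout libraries and Lyz2 in none. NK cell markers were open at 0 or 1 of 2 genes, with Ncr1 in no library and Klrb1c in 2 naive and both Th2 knockout libraries. The part of these cells in the values at the locus was not tested. In bulk lists, opening in fewer cells and weaker opening in all cells cannot be told apart.

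By the number of called peaks, the locus was least open in naive cells, more open in Th1 cells and most open in Th2 cells. Naive lists had 7 and 8 peaks there in the wild type and 8 and 7 in the knockout. Th1 lists had 15 and 9 in the wild type and 16 and 14 in the knockout, and Th2 lists had 22 and 20 in the wild type and 21 and 20 in the knockout. Every Th2 library lay above every Th1 library, and every Th1 library above every naive library. The means were 13.5 ± 3.11 peaks in Th1 and 20.8 ± 0.957 in Th2 libraries (SD, n = 4 libraries of 2 genotypes). In naive libraries the mean was 7.5 peaks, over 2 technical replicates of each of 2 samples. Peaks covered 3049 to 3295 bp in naive, 3708 to 7414 bp in Th1 and 9375 to 10313 bp in Th2 libraries.

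List length bears on these counts. Per 10000 peaks of a list, the locus held 1.33 to 1.95 peaks in naive, 2.59 to 3.48 in Th1 and 3.73 to 4.06 in Th2 libraries, so the order and the separation held. When only the 34746 strongest peaks of each list were kept, naive libraries had 7, 6, 8 and 6 peaks at the locus, Th1 libraries 13, 9, 16 and 11, and Th2 libraries 14, 13, 14 and 16. The polarized libraries still stood above the naive ones, but Th1 and Th2 libraries then overlapped. Naive lists were not shorter than Th1 lists as a group, with 41075 to 56195 peaks. They did differ in the strength of their calls. The median −log10 q-value of a list was 8.20 and 9.78 in the naive wild type and 4.93 and 5.67 in the naive knockout. In polarized lists it was 3.39 to 4.14. The part of this difference in the counts at the locus was not tested.

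**Figure D1:**
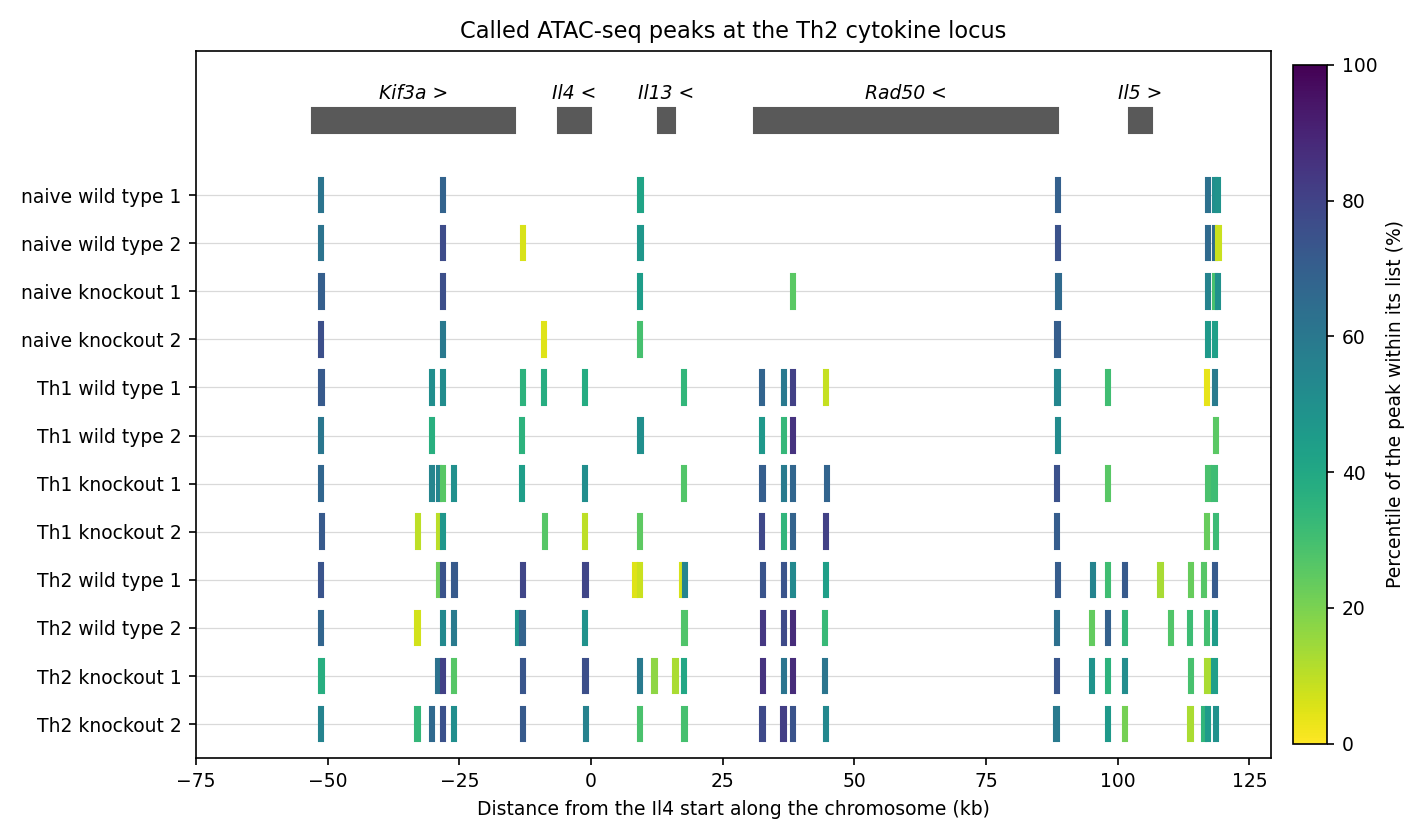
Called peaks at the Th2 cytokine locus in 12 libraries. The x axis gives the distance from the Il4 start along the chromosome in kb, each row is 1 library, each mark is centred on 1 peak and drawn wider than it, and its colour is the percentile of the peak among all peaks of its list; grey bars are the genes, with arrowheads for their direction. In the left part of Rad50, marks appear in all Th1 and Th2 rows, but the rightmost ones there are absent from the row Th1 wild type 2. A mark appears there in 1 naive row. Those just left of Il5 appear in Th2 rows or in Th1 and Th2 rows.

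**Figure D2:**
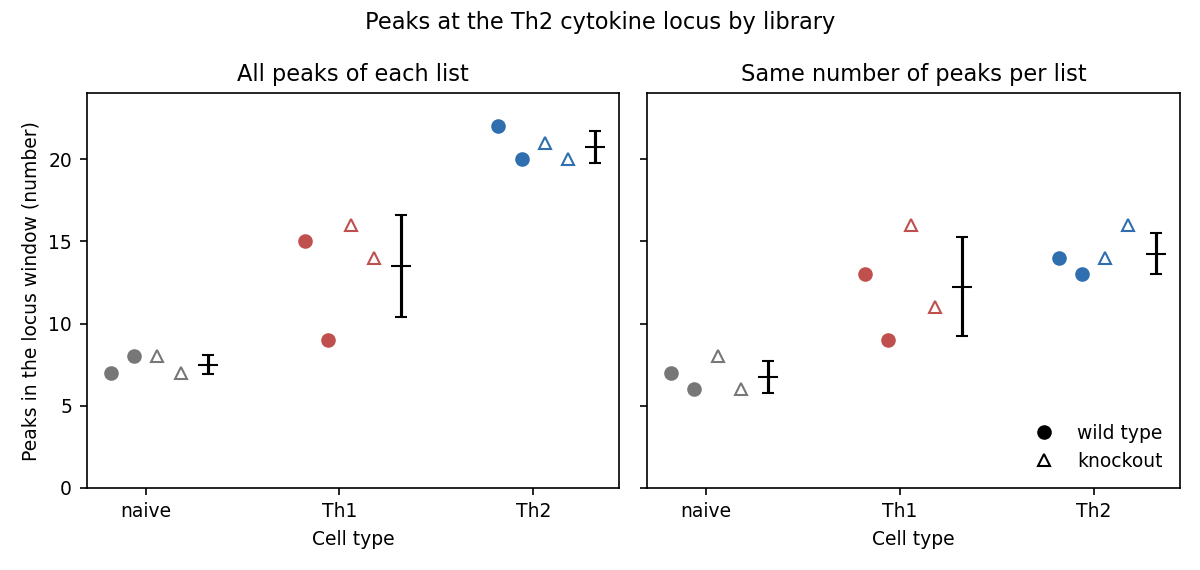
Peaks in the locus window by library, with all peaks of each list (left) and with the 34746 strongest peaks of each list (right). Points are libraries (circles wild type, triangles knockout), and the black dash and bar give the mean and SD of 4 libraries, which for naive cells are technical replicates of 2 samples; the Th2 points lie at 20 to 22 on the left, above all Th1 points, and at 13 to 16 on the right, among them.

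The 29 regions fell into a few patterns. Only 3 had a peak in all 12 libraries, namely the start of Kif3a, the start of Rad50 and 53736863 to 53737406, downstream of Il5. A further 19 had no peak in naive cells, which is 65.5% of the locus against 40.7% of all 110642 regions. Of these, 10 were open in at least 1 Th1 and 1 Th2 library and 9 in Th2 libraries alone, of which 6 rested on a single library. In 19 regions more Th2 than Th1 libraries had a peak, in 8 as many and in 2 fewer. Over all regions, 34.5% had more Th2 than Th1 libraries and 14.0% fewer. These shares are counts of called peaks in the full lists and carry no test. Th2 lists were longer than Th1 lists, which bears on them. Cutting the lists to equal length lowered the number of locus regions with more Th2 than Th1 libraries. It raised the number with fewer Th2 than Th1 libraries, although the former still outnumbered the latter. No share over all regions was taken for this count at equal length.

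The starts of the broadly used genes were open throughout. The region over the Kif3a start (53567069 to 53567975) stood at percentiles 61.4 and 61.9 of the naive wild-type lists and 70.2 and 76.2 of the naive knockout lists, ranked by the −log10 of the q-value. Its percentiles were 72.2, 60.6, 67.4 and 72.1 in Th1 lists (wild type first) and 74.1, 67.6, 37.4 and 55.3 in Th2 lists. The region over the Rad50 start (53706685 to 53707770) stood at 66.0 to 74.8 in naive, 52.0 to 75.4 in Th1 and 59.3 to 73.1 in Th2 lists. A region inside Kif3a (53590282 to 53590909) was open in 11 libraries, all except Th1 wild-type replicate 2. These regions were thus open in naive cells, where no list had a peak inside Il4, Il13 or Il5.

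Il4 itself had a peak in polarized cells alone. The region 53617127 to 53618063 covers the second annotated start of Il4 and ends 602 bp inside the gene from its first start. No naive list had a peak in it. In Th1 lists it stood at percentile 38.6 in wild-type replicate 1, 50.9 in knockout replicate 1 and 9.89 in knockout replicate 2, with no peak in wild-type replicate 2. In Th2 lists it stood at 79.0 and 48.9 in the wild type and at 76.1 and 56.0 in the knockout. Peaks there covered 432, 0, 237 and 264 bp in the Th1 libraries and 853, 920, 845 and 689 bp in the Th2 libraries, where 0 stands for no peak, so the narrowest Th2 value exceeded the widest Th1 value.

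Beyond the other end of Il4, a region at 53605225 to 53606279 lay 6181 bp past the end of the gene and 977 bp past the end of Kif3a. It was open in 4 of 4 Th2 libraries, at percentiles 79.1, 68.5, 73.1 and 72.1, and in 3 of 4 Th1 libraries, at 35.6, 35.6 and 44.3. In naive cells 1 wild-type list had it, at 5.87. Peaks covered 316, 200, 301 and 0 bp in the Th1 libraries and 942, 893, 986 and 1009 bp in the Th2 libraries. Between these groups there was no overlap. Between this region and Il4, 53609498 to 53610067 showed the reverse order, with a peak in 2 of 4 Th1, 1 of 4 naive and no Th2 libraries.

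Il13 had little called opening at its start. The region over it (53634562 to 53634852) rested on 1 peak of Th2 knockout replicate 1, at percentile 12.9, and no other list had a peak there. Upstream, 53635911 to 53636659, which begins 1209 bp beyond the Il13 start, was open in 4 of 4 Th2 libraries at percentiles 54.7, 27.6, 40.3 and 29.6. It was also open in 2 of 4 Th1 libraries, at 34.1 and 27.3, and in no naive library. Between Il4 and Il13, 53627833 to 53628230 was open in all 4 naive libraries at percentiles 29.5 to 47.2, in 2 of 4 Th1 and in 3 of 4 Th2 libraries.

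The part of Rad50 nearest to Il13 opened in both polarized cell types. It held 4 regions, from 53650897, which lies 1378 bp inside the gene, to 53663706. The first, 53650897 to 53651684, was open in all 8 polarized and no naive libraries, at percentiles 68.0, 46.6, 70.3 and 78.2 in Th1 lists and 74.1, 84.0, 85.2 and 77.9 in Th2 lists. The second, 53654872 to 53655540, was likewise open in all 8 and in no naive library, at 59.4, 33.3, 58.6 and 34.5 in Th1 lists and 74.1, 77.7, 61.7 and 81.9 in Th2 lists. The third, 53656647 to 53657286, was open in all 8 at 67.3 to 85.5 in Th1 and 53.1 to 87.7 in Th2 lists, and in 1 naive knockout library at 25.4. The fourth, 53662805 to 53663706, was open in 4 of 4 Th2 and 3 of 4 Th1 libraries and in no naive library.

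Within this part of Rad50 the lists differed in how far the peaks reached. Peaks in the first region covered 575, 419, 529 and 425 bp in the Th1 libraries and 788, 749, 703 and 639 bp in the Th2 libraries, with no overlap. In the third region the means ran the other way, at 522.5 ± 82.0 bp in Th1 and 398.8 ± 38.8 bp in Th2 libraries (SD, n = 4), and the ranges of 453 to 640 and 370 to 456 bp overlapped. From the end of the fourth region to the Rad50 start, a stretch of 43.0 kb held no peak in any of the 12 lists. It was the longest stretch without a peak between regions of the locus.

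Il5 had the regions that separated Th2 from Th1 cells by presence. The region 53719761 to 53720251 ends 543 bp before the Il5 start and was open in all 4 Th2 libraries and in no other list. Its percentiles were 72.1 and 33.6 in the wild type and 51.3 and 20.7 in the knockout. The region 53732250 to 53732724, 7147 bp beyond the end of Il5, had the same pattern at 23.3, 31.3, 29.1 and 12.6. A region between Rad50 and Il5 (53713538 to 53714101) was open in 3 of 4 Th2 libraries and in no other. Next to it, 53716623 to 53717060 was open in 4 of 4 Th2 and 2 of 4 Th1 libraries. Inside Il5 itself no list had a peak.

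Of the 16 regions of the locus open in all 4 Th2 libraries, the 2 near Il5 had no peak in any Th1 library. The share over all such regions was 7.47%. In the wild type alone 4 of 17 regions were Th2-only, against 19.9% over all regions, and these were the 2 near Il5, 53713538 to 53714101 and 53592433 to 53592972 in Kif3a. In the knockout alone 2 of 17 were, against 16.2%. None of the 6 regions open in all 4 Th1 libraries was Th1-only in both genotypes, where the share over all regions was 1.86%. In the wild type 1 of 8 was Th1-only (53588293 to 53588655 in Kif3a), against 5.85%, and in the knockout 0 of 11, against 6.82%. The counts in the locus are small, and they rest on presence. With the 34746 strongest peaks of each list none of 8 regions was Th2-only in both genotypes (5.32% over all regions), 2 of 11 were in the wild type (13.9%) and 0 of 9 in the knockout (12.6%). The region before Il5 was then open in 3 of 4 Th2 and 0 of 4 Th1 libraries. The region beyond the end of Il5, 53732250 to 53732724, then had no peak in any list. At a −log10 q-value of at least 2, Th2-only regions numbered 1 in both genotypes, 6 in the wild type and 1 in the knockout. Where peaks had to cover 50% of a region, they numbered 4, 7 and 6. The wild-type count was 10 without Th1 wild-type replicate 1 and 7 without either Th2 wild-type replicate, and the knockout count was 6 without Th1 knockout replicate 1 and 5 without Th2 knockout replicate 2. Leaving out a library loosens the rule for all regions. No share over all regions was taken at these last settings, so their counts cannot be set against the series.

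Naive and polarized cells differed in several regions. Of the 16 regions open in all Th2 libraries 9 had no naive peak, against 40.6% over all regions. Of the 6 regions open in all Th1 libraries 2 had none, against 29.8%. The same 2 were open in all 8 polarized libraries, against 27.6% over all regions of that kind, and they are the first and second region of Rad50. Without Th1 wild-type replicate 2, whose list was the shortest, 4 regions were open in all Th1 and in no naive library (no share over all regions was taken). None of the 6 regions open in all naive libraries was without a peak in all Th2 or in all Th1 libraries, where the shares over all regions were 22.8% and 24.3%. Downstream of Il5, 53737568 to 53737953 was open in 3 of 4 naive libraries and in no polarized one. With equal lists 4 of 8 regions (42.3% over all regions) were open in all Th2 and no naive libraries. These were the regions past the end of Il4, at the second Il4 start and the first and second of Rad50. The latter 2 were also the 2 of 6 open in all Th1 (32.9%) and the 2 of 5 open in all 8 polarized libraries (30.9%) with no naive peak.

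**Figure D3:**
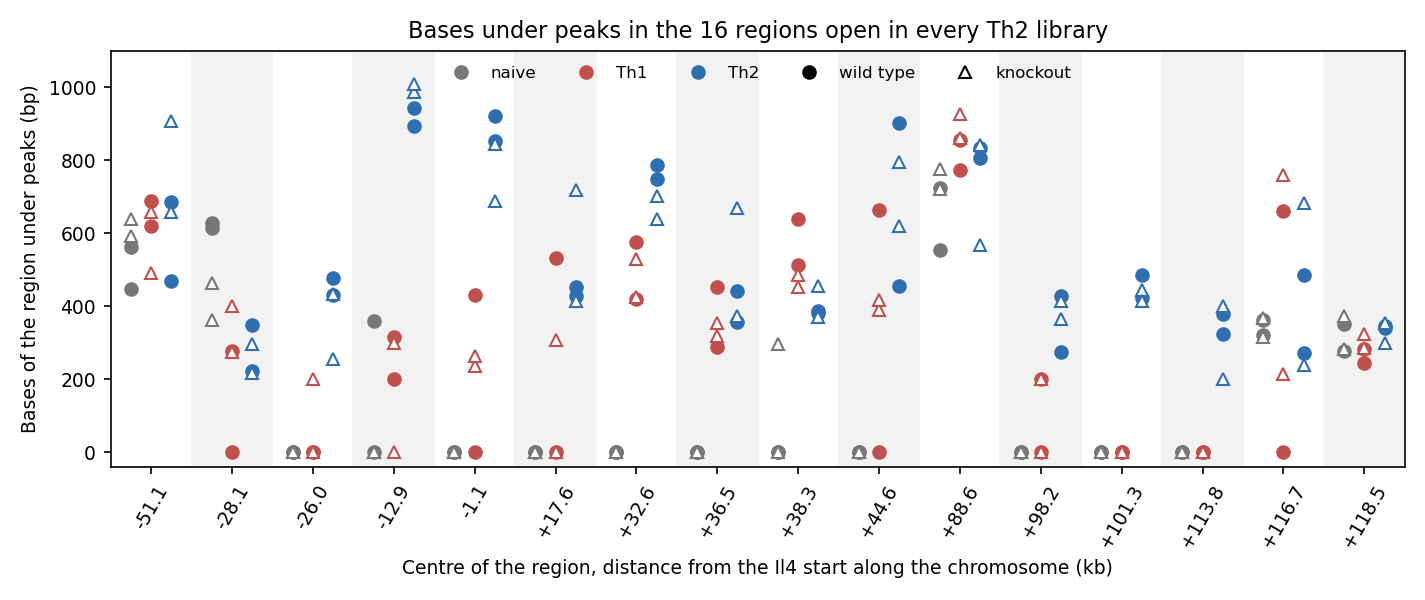
Bases under peaks in each of the 16 regions that were open in every Th2 library. The x axis gives the centre of the region as the distance from the Il4 start along the chromosome in kb, the y axis the bases covered by peaks in bp, and points are libraries (circles wild type, triangles knockout; grey naive, red Th1, blue Th2). A value of 0 means no peak; past the end of Il4 (at -12.9 kb) the Th2 points lie at 893 to 1009 bp and the Th1 points at 0 to 316 bp.

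The bases under peaks were compared where the choice of region favoured neither cell type, in the 6 regions of the locus with a peak in all 8 polarized libraries. Every Th2 library had more bases than every Th1 library at 1 of the 6, the first of Rad50, and the reverse was seen at none. Over the 23077 such regions of the series the shares were 8.83% and 1.63%. At the first region of Rad50 the means were 719.8 ± 64.1 bp in Th2 and 487 ± 77.4 bp in Th1 libraries (SD, n = 4). The two-sided exact permutation test over 8 libraries gave the smallest p that 4 against 4 allows, 0.0286, with an adjusted p of 0.273 by Benjamini-Hochberg over the 23077 regions. At the other 5 the exact p was 0.0571 to 0.571. None of the 23077 regions passed at an adjusted p of 0.05, and 2413 had an unadjusted p under 0.05. With this smallest p, a large share of all regions would have to reach it for any to pass, so that outcome says little about a single region.

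With a missing peak counted as 0 bp, 7 of the 16 regions open in all Th2 libraries had more bases in every Th2 than in every Th1 library, and none the reverse. Over the 38881 regions open in all Th2 or all Th1 libraries the shares were 20.8% and 3.34%. At 6 of the 7 at least 1 Th1 library had no peak, and 2 of the 6 were the Th2-only regions near Il5. These regions were chosen through their peaks in Th2 cells, so the count is a description and no test is given for it. With equal lists 3 regions kept this order: past the end of Il4, at the second Il4 start and the first of Rad50. No share over all regions was taken for this order with equal lists.

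Counted around each gene, with 20 kb on each side, the windows of neighbouring genes share peaks. Near Il5, the eosinophil cytokine, Th2 libraries had 8, 8, 7 and 7 peaks (wild type first), Th1 libraries 4, 2, 4 and 3 and naive libraries 4, 4, 4 and 3. Th2 libraries stood above all others there, while Th1 and naive libraries overlapped. Near Rad50, Th2 libraries had 11, 9, 11 and 8 peaks, Th1 libraries 7, 4, 7 and 5 and naive libraries 1, 1, 2 and 1, so the 3 cell types did not overlap. The share of all genes at which the 3 cell types were separate was not taken. Near Il4 the counts were 7, 5, 7 and 5 in Th2, 4, 2, 4 and 3 in Th1 and 1, 2, 1 and 2 in naive libraries. Here Th2 stood above Th1, and the lowest Th1 value equalled the highest naive one. Near Il13 they were 6, 3, 6 and 4 in Th2, 3, 2, 3 and 3 in Th1 and 1 in each naive library. Near Kif3a they were 6, 7, 6 and 7 in Th2, 6, 3, 7 and 6 in Th1 and 2, 3, 2 and 3 in naive libraries. At Il13 and Kif3a the Th2 and Th1 libraries overlapped.

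**Figure D4:**
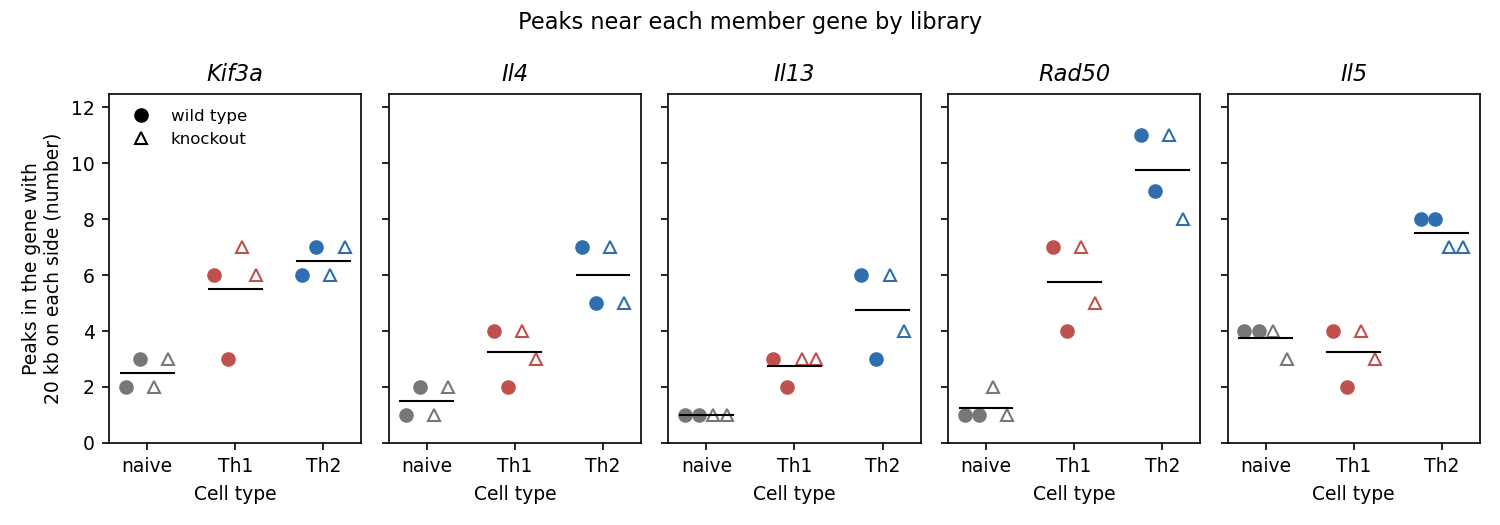
Peaks in each member gene with 20 kb on each side, by library. The x axis gives the cell type and the y axis the number of peaks; points are libraries (circles wild type, triangles knockout) and lines are means of 4 libraries, and the Th2 points lie above all Th1 points at Il4, Rad50 and Il5 but not at Kif3a and Il13.

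The Th2 and Th1 counts were tested by two-sided exact permutation over the 70 splits of 8 libraries, for all 17467 protein-coding genes with a peak. The difference in means was 4.25 peaks at Il5, 4 at Rad50 and 2.75 at Il4, each with p = 0.0286, the smallest possible, and with an adjusted p of 0.299 by exact permutation and Benjamini-Hochberg over all genes. At Il13 it was 2 peaks (exact p = 0.114, adjusted p = 0.552) and at Kif3a 1 peak (exact p = 0.629, adjusted p = 1). The median difference over all genes was 0.5 peaks. Counts higher in every Th2 than in every Th1 library were seen at 3 of the 5 members and at 9.16% of all genes, and the reverse at 0 members and 0.395% of all genes. No gene of the 17467 passed after adjustment, while 1669 had an unadjusted p under 0.05. For any gene to pass, a large share of all genes would have to reach the smallest possible p, so that outcome says little about a single gene. With equal lists the difference was 1.25 peaks at Il5 (exact p = 0.114), 1.5 at Rad50 (exact p = 0.2) and 0.75 at Il4 (exact p = 0.429). In wild-type libraries alone it was 5 peaks at Il5, 4.5 at Rad50, 3 at Il4, 2 at Il13 and 2 at Kif3a. Without Th1 wild-type replicate 2 it was 2.33 at Il4 (exact p = 0.0857) and 3.42 at Rad50 (exact p = 0.0571). With 5 kb in place of 20 kb on each side it was 2 at Il5 (exact p = 0.0286), 0.25 at Rad50 (exact p = 1) and -0.25 at Il4 (exact p = 1). The excess of Th2 peaks near Rad50 thus lay mostly more than 5 kb outside the gene. Those peaks are in regions toward Il13 and Il5 that the windows of these 2 genes share.

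The bases under peaks gave a similar order of the cell types. Near Il4 they were 3233, 3065, 3548 and 2824 bp in Th2 libraries and 1818, 496, 1045 and 757 bp in Th1 libraries, a mean difference of 2139 bp. Near Rad50 the difference was 1942 bp, near Kif3a 1608 bp, near Il5 1431 bp and near Il13 1394 bp, and at all 5 genes every Th2 library exceeded every Th1 library. Over all genes this was so at 20.4%, and the reverse at 0.807%. The exact p was 0.0286 at each member, with an adjusted p of 0.134 over all genes. The median difference over all genes was 247.5 bp. With equal lists Il4 alone of the 5 kept this separation, at a difference of 1545 bp (exact p = 0.0286, adjusted p = 0.226). The share of all genes with this separation was not taken for equal lists, so Il4 cannot be set against the series there. With 5 kb on each side the difference was 449.5 bp near Rad50 and 385.8 bp near Il4 (exact p = 0.143 at both), 879 bp near Il5 and 1222 bp near Kif3a (exact p = 0.0286 at both) and 567.2 bp near Il13 (exact p = 0.0571).

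Between the genotypes, few called peaks differed at the locus. In naive cells none of the 7 regions open in both wild-type libraries was without a peak in both knockout libraries, where the share over all regions was 20.9%. None of the 6 regions open in both naive knockout libraries was absent from the wild type, against 8.67%. The naive knockout lists were shorter (41075 and 43823 peaks) than the naive wild-type lists (52571 and 56195 peaks). The part of list length in these 2 shares was not tested. In Th2 cells 0 of 17 were lost, against 3.83%, and 0 of 17 gained, against 4.56%. In Th1 cells 0 of 8 were lost, against 3.96%, and 1 of 11 gained, against 8.76%. The gained region, 53589581 to 53589928 in Kif3a, stood at percentiles 54.4 and 10.2 of the Th1 knockout lists, and was also open in 1 wild-type and 1 knockout Th2 library. With equal lists 2 others were gained in Th1 cells instead, the fourth of Rad50 and 53734939 to 53735980 downstream of Il5 (6.35% over all regions). Without Th1 wild-type replicate 1, 5 regions were gained there (no share over all regions was taken).

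In the number of peaks at the whole locus, the genotypes overlapped in each cell type. The locus held 7.5 ± 0.707 peaks in naive cells of either genotype (SD, n = 2 technical replicates). In Th1 cells it held 12 ± 4.24 peaks in the wild type and 15 ± 1.41 in the knockout (SD, n = 2), and in Th2 cells 21 ± 1.41 and 20.5 ± 0.707. An exact permutation test of 2 libraries against 2 cannot go below 0.333, so none is given. Near Il5, Th2 wild-type libraries had 8 and 8 peaks and Th2 knockout libraries 7 and 7. Near Il4, Th2 libraries had 7 and 5 peaks in each genotype. A value that did not differ here sets no bound on the effect of the deletion.

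For other genes of the Th2 program, a list of 25 was read the same way. Of these, 7 had at least 1 region that was Th2-only in both genotypes and 1 a Th1-only region, against 12.9% and 2.47% of the 17467 genes. Il1rl1, Il10, the gene of a regulatory cytokine, and Junb, an AP-1 subunit gene, had 2 Th2-only regions each. The Th1-only region was also near Il1rl1. Areg, the gene of the growth factor amphiregulin, Pparg, a nuclear receptor gene, Batf and Irf4, genes of partner transcription factors, had 1 each. By the count of peaks 5 of the 25 were higher in every Th2 than in every Th1 library and none lower (9.16% and 0.395% over all genes). At Il1rl1 naive libraries had 5 to 7 peaks, Th1 libraries 7 to 10 and Th2 libraries 12 or 13. At Il10 these counts were 1 or 2, 3 or 4 and 6 or 7. At Junb they were 8 or 9, 6 or 7 and 9, so naive libraries stood near Th2 libraries there. Pparg had the largest difference between Th2 and Th1 means of the 25 (5 peaks). There naive libraries had 0 or 1 peaks, Th1 libraries 4 to 8 and Th2 libraries 9 to 12. Gata3, the master regulator, had no Th2-only region, with 6 or 7 peaks in naive, 4 or 5 in Th1 and 5 or 6 in Th2 libraries.

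Of 14 protein-coding neighbours on chromosome 11, 2 had counts higher in every Th2 than in every Th1 library (9.16% over all genes), Slc22a5 and Shroom1. Unlike at Il4 and Rad50, naive libraries had as many peaks there on average as Th2 libraries or more, at 4 to 6 against 4 or 5 for Slc22a5 and 3 or 4 against 2 or 3 for Shroom1. Irf1, an interferon response factor gene beyond Il5, had 4 or 5 peaks with 20 kb on each side in naive, 2 to 4 in Th1 and 2 or 3 in Th2 libraries. Septin8, beyond Kif3a, had 2 or 3 in naive, 1 or 2 in Th1 and 1 to 4 in Th2 libraries. The cytokine genes Csf2 and Il3, further along the chromosome, had 2 to 4 and 3 or 4 in naive, 1 to 4 and 1 or 2 in Th1, and 2 to 5 and 2 or 3 in Th2 libraries. A Th2-only region was found at 2 of the 14 (12.9% over all genes), Slc22a5, a carnitine transporter gene, with 2 and Acsl6, a fatty acid enzyme gene, with 1.

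At the Th1 counterpart, the locus of Ifng and Il22 with 20 kb on each side (25 regions), naive libraries had 8 to 13 peaks, Th1 libraries 10 in each and Th2 libraries 3 to 5. Of its 7 regions open in all Th1 libraries 3 were Th1-only (1.86% over all regions) and 2 had no naive peak (29.8%). The locus of Il1rl1, Il18r1 and Il18rap (30 regions), genes of receptors for IL-33 and IL-18, had 6 to 11 peaks in naive, 10 to 16 in Th1 and 16 or 17 in Th2 libraries. There 3 of 14 regions open in all Th2 libraries were Th2-only and 10 had no naive peak, against 2 and 9 of 16 at the cytokine locus and 7.47% and 40.6% over all regions. The differences between loci were not tested.

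Across the 12 libraries, the genes whose peak number per 10000 peaks followed that of the locus most closely were Acsl4, a fatty acid enzyme gene (Pearson r = 0.980), Hsf2, a heat shock factor gene (0.979), Erlin1 (0.972), Sgce (0.971) and Ugt1a10 (0.968). They were the highest of 9518 genes compared, outside 1 Mb of the locus. The r is a description over 12 libraries that fall into 3 cell types and share their list lengths. At Acsl4 the counts were 5 in naive, 5 to 8 in Th1 and 9 to 11 in Th2 libraries, and at Hsf2 they were 2 or 3, 4 to 6 and 8 or 9.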

How the data were processed

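Each library was deposited by the authors as 1 list of called peaks. Per the submitters' processing notes, BWA, Picard, MACS2 and GRCm38 were used, with versions and settings not given in the sources used here. Per the layout of the deposited lists, each peak has a score (10 times its −log10 q-value, without decimals), a ratio giving its fold over background, and the −log10 of its p-value and q-value. These values belong to 1 library, so they were used only to rank peaks within a list. Other sequences than chromosomes 1 to 19 and X were left out. Overlapping peaks of all lists were merged into 110642 regions. Depth is unknown, so no counting interval is given and a missing peak means that none was called.

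Groups followed source name, title and strain. Th2-only, Th1-only, lost, gained and opened regions were counted as a peak in every library of one group and none of the other, over regions open in every library of the first. Gene positions came from the RefSeq table of GRCm38.p6. Exact permutation tests over 8 libraries were run on all protein-coding genes or regions and adjusted by Benjamini-Hochberg. They treat genotypes as one pool, and 2 libraries per group leave only the spread between these cultures. The promoter sequences were searched for 7 short motifs. The members, lists and rules were chosen with earlier results of these data known. Named were all members, all regions called in a comparison, and the 5 genes most alike. The counts of opened regions and of bases per region were added after the data were seen. Alternatives were equal list lengths, a −log10 q-value of at least 2, coverage of 50% of a region, merging over 100 bp, 5 kb in place of 20 kb, wild-type libraries only, and leaving out each library. Computations were tested on simulated data. The scripts ran in Python 3.11.15 with scipy 1.17.1, pandas 2.3.3, numpy 2.4.6 and, for figures, matplotlib 3.10.9.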

Additional observations from a re-analysis of the deposited data

Results flagged for a closer look

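Of 33 sets of 4 libraries of a cell type that were checked for a library far from the others, 3 had one. Th1 wild-type replicate 2 had 2 peaks near Il13 where the other 3 Th1 libraries had 3 each. Naive knockout replicate 1 had 2 peaks near Rad50 where the other 3 naive libraries had 1 each. Naive knockout replicate 2 had 3 peaks near Il5 where the other 3 had 4 each. Each rests on 1 peak. Where 3 libraries of a set have equal counts, the rule flags the remaining library at any difference. These flags therefore cannot tell a deviating library from a difference of 1 peak. How often chance gives such a set of small counts was not tested.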

How the results depend on the processing

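With equal lists, Th2-only regions at the locus numbered 0 in both genotypes, 2 in the wild type and 0 in the knockout, those gained in Th1 cells 2, those opened in Th2 cells 4, and those with more bases in every Th2 library (a missing peak counted as 0 bp) 3. At a −log10 q-value of at least 2, Th2-only regions numbered 1 in both genotypes, 6 in the wild type and 1 in the knockout, and 2 were gained in Th1 and 1 in Th2 cells. Where peaks had to cover 50% of a region, Th2-only regions numbered 4, 7 and 6 in both genotypes, the wild type and the knockout, and 1 was lost in Th2 cells.

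Leaving out 1 library at a time gave 2 to 3 Th2-only regions in both genotypes, 4 to 10 in the wild type (10 without Th1 wild-type replicate 1) and 2 to 6 in the knockout (6 without Th1 knockout replicate 1). Th1-only regions in both genotypes ranged from 0 to 0. Lost and gained regions ranged from 0 to 1 and 0 to 1 in naive cells, 0 to 2 and 1 to 5 in Th1 cells and 0 to 2 and 0 to 2 in Th2 cells. Opened regions ranged from 9 to 10 in Th2 cells, 2 to 4 in Th1 cells and 2 to 4 in both, and regions with more bases in every Th2 library from 7 to 10. For the q-value, coverage and leave-one-out settings no share over all regions was taken. None was taken for the bases per region with equal lists either. These counts therefore describe the locus only.

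Mean peaks at the locus with equal lists were 6.5 in naive wild-type, 13.5 in Th1 knockout, 13.5 in Th2 wild-type and 15 in Th2 knockout cells. At a −log10 q-value of at least 2 they were 13.5 in Th1 knockout, 18.5 in Th2 wild-type and 18.5 in Th2 knockout cells. With 5 kb on each side they were 4.5 and 5 in naive wild-type and knockout, 13 in Th1 knockout, and 18 and 17 in Th2 wild-type and knockout cells. In that window the difference in peaks was -0.25 at Il4 and 0.25 at Rad50 (exact p = 1 at both), against 2.75 and 4 with 20 kb. Within 5 kb of Rad50 each region was open in 3 or 4 Th1 and in 4 Th2 libraries, so the difference with 20 kb came from regions further out. Within 5 kb of Il4, the region at its second start was open in 3 Th1 and 4 Th2 libraries. The other region there, 53609498 to 53610067, was open in 2 Th1 and 0 Th2 libraries. In wild-type libraries only, the difference in bases near Il5 was 1895 bp. All other differences of the 5 genes in these alternatives kept their direction. No gene of the series passed at an adjusted p of 0.05 in any alternative that was tested, and wild-type libraries only were not. With so few libraries a pass would need a large share of all genes at the smallest possible p, so this says little about single genes.

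With a replicate block (sign flips within 4 pairs of the same genotype and replicate number) the differences in peaks were 4.25 at Il5, 4 at Rad50, 2.75 at Il4, 2 at Il13 and 1 at Kif3a, with an exact p of 0.125 at all but Kif3a (0.75), the smallest that 4 pairs allow. That fit cannot pass at 0.05, so it says nothing about stability. Over all 110642 regions, same-numbered Th1 and Th2 libraries did not deviate together (correlation -0.00399 in the wild type and 0.00963 in the knockout). At the locus, replicate 1 had more peaks than replicate 2 in each polarized group. The counts were 15 and 9 in Th1 wild type, 16 and 14 in Th1 knockout, 22 and 20 in Th2 wild type, and 21 and 20 in Th2 knockout. The list of replicate 1 was also the longer one in each of these groups. Whether the numbers pair the cultures is therefore not known.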
